A study of Homo sapiens with 12 samples.

Results

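The genes examined here carry glucose into the cell, break it down to pyruvate and pass the carbon out as lactate. They were taken by name as the rows SLC2A1, HK1, HK2, PFKP, GAPDH, PGK1, ENO1, LDHA, LDHB and SLC16A3 of the count files, and all 10 were found among 23228 gene rows and passed the filter on low counts. The rule uses names alone, but the genes were chosen with earlier results of these data known. Their shared direction is therefore a description and not a test. The study asked how inhibitors of PI3K and EZH2 act alone and together on C4.2B cells, an established human castration-resistant prostate cancer line. PolyA RNA was sequenced from 12 libraries in 4 arms of 3 replicates (A, B and C). DMSO was the vehicle arm, GDC received 0.5 µM GDC-0941, which inhibits PI3K broadly, GSK received 5 µM GSK126, which inhibits EZH2, and COMBO received both at those doses. Before the 24 h of treatment, GSK and COMBO cells had been kept in GSK126 for 6 days, and charcoal-stripped serum (10%) was used in every arm. The plates of an arm were replicate dishes of a single cell line, so p-values measure the spread between dishes, which may be technical.

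Glycolysis converts a molecule of glucose into pyruvate through a chain of cytosolic enzymes and yields ATP and NADH. Lactate dehydrogenase then turns pyruvate into lactate and restores the NAD+ that the chain needs, and monocarboxylate transporters release the lactate. Many steps are served by several genes, called isoforms here, whose products catalyse the same reaction but differ in tissue, regulation or kinetics. PI3K signalling is known to promote glucose uptake and glycolysis in many cell types, and EZH2 writes the repressive mark H3K27me3.

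Gene counts per library ranged from 8785218 to 44437751, and the 10 genes held between 374 and 160273 counts in every library. Levels are given as CPM (counts scaled to the TMM-adjusted library size), and changes as log2 fold changes from the quasi-likelihood test of edgeR over 14189 genes, with the Benjamini-Hochberg adjusted p. A change was called when that p was under 0.05. The 3 inhibitor arms share the DMSO libraries as controls, so their values are not independent. Reads outside genes made up 13.7% to 14.6% of a DMSO library and 21.0% to 23.0% of a COMBO library, and the part of that shift in the results was not tested. The luminal prostate markers KLK3, KLK2, TMPRSS2, FOLH1, HOXB13, KRT8, KRT18 and EPCAM each averaged at least 1 CPM, and moved in different directions between DMSO and COMBO. The mean went from 597 to 1843 CPM for KLK3, from 322 to 319.7 CPM for KRT18, from 484 to 304 CPM for HOXB13 and from 115 to 80.3 CPM for EPCAM. Of 5 fibroblast, 4 immune and 3 endothelial markers, only COL1A1, CD68 and VWF averaged at least 1 CPM, while DCN, LUM, PTPRC, CD3E, PECAM1 and CDH5 were at or near 0. The summed fibroblast list ran from 10.3 to 11.7 CPM for DMSO, 11.1 to 14.3 for GDC, 26.1 to 38.3 for GSK and 29.4 to 48.4 for COMBO, carried mainly by COL1A1. The summed immune list was at 4.84 to 5.70 CPM for DMSO, 5.57 to 6.28 for GDC, 6.92 to 9.56 for GSK and 7.57 to 9.58 for COMBO. The summed endothelial list was at 2.74 to 3.25 CPM for DMSO, 4.43 to 6.89 for GDC, 5.59 to 6.15 for GSK and 4.82 to 5.55 for COMBO. The part of these shifts in the results was not tested. In bulk RNA, fewer cells expressing a gene and less RNA per cell cannot be told apart.

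With GDC, 8 of the 10 genes fell and 2, PFKP and PGK1, were not called, beside 20.0% of all tested genes called lower and 20.0% called higher. With GSK all 10 fell, against a background of 35.7% lower and 40.0% higher. With COMBO all 10 fell again, against 39.2% lower and 43.3% higher. The median log2 fold change of the 10 genes was -0.23 with GDC, -0.72 with GSK and -1.22 with COMBO, where the median of all tested genes was 0.016, 0.058 and 0.054. No member was called higher in any arm, in a list chosen with earlier results known. Every library of COMBO lay below every DMSO library for each of the 10 genes. Of 28 other tested pathway genes, 22 also had no overlap between these arms, in either direction. The share without overlap over all tested genes was not computed, so here and below a lack of overlap is a description.

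COMBO was also below each single agent. Against GDC all 10 genes were lower, with a median log2 fold change of -1.06, where 38.0% of tested genes were lower and 37.9% higher. Against GSK all 10 were again lower, with a median of -0.59, where 26.9% were lower and 19.0% higher. Summed over the 10 genes, DMSO libraries held 10144 ± 261 CPM, GDC libraries 8394 ± 123, GSK libraries 7016 ± 57.2 and COMBO libraries 4430 ± 74.2 (SD, n = 3). COMBO thus held 43.7% of the DMSO sum, and GDC and GSK held 82.7% and 69.2%. Scaled by library totals in place of TMM, these shares were 50.4%, 84.8% and 76.9%. Abundant genes such as GAPDH and ENO1 weigh most in the sum. The arms did not overlap, and each two-sided exact permutation p was 0.1, the smallest that 3 libraries against 3 allow.

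**Figure D1:**
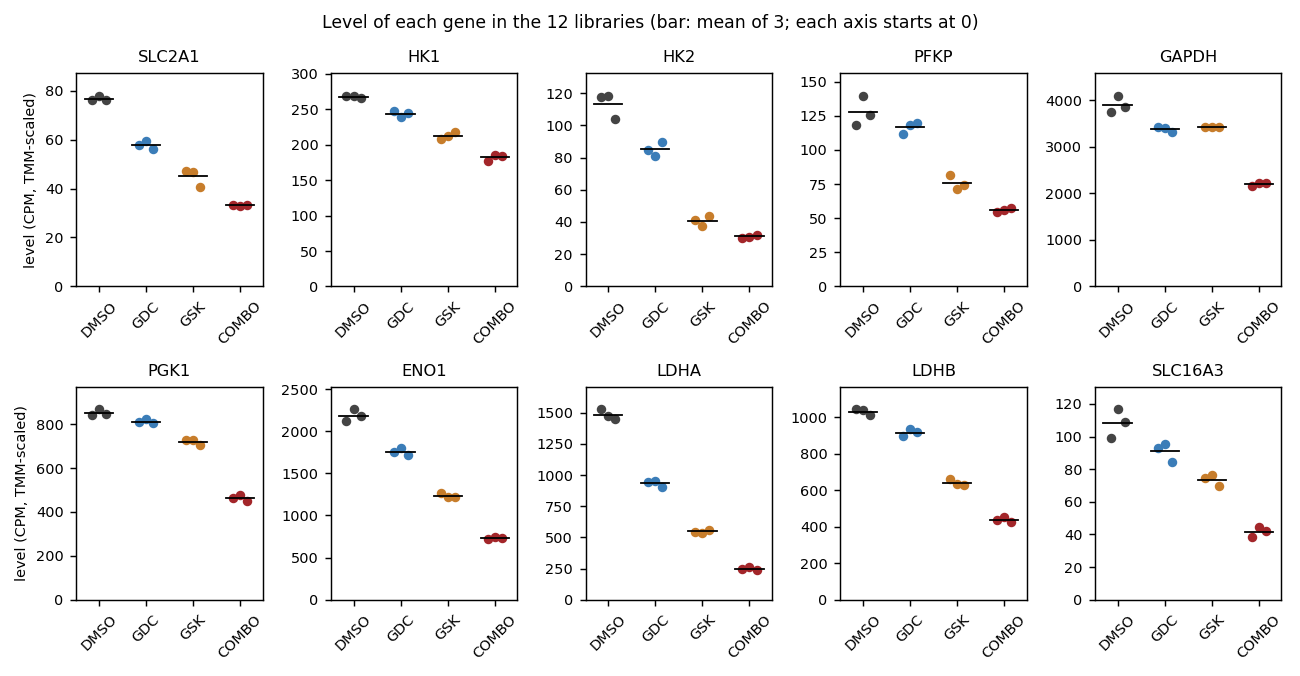
Level of each of the 10 genes in CPM (vertical axis, TMM-scaled, starting at 0) in the 3 libraries of each arm (points), with the mean as a bar. COMBO is the lowest arm for all 10 genes, and LDHA runs from 1484 CPM in DMSO to 249 CPM in COMBO.

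Scaling bears on small changes. With library totals in place of TMM, the median of all genes shifted upward, by 0.15 for GSK, by 0.21 for COMBO and by 0.17 for COMBO over GDC, and the values below are relative to TMM. All 10 genes remained lower than DMSO in COMBO under each of 19 alternatives, and the members' calls that changed with another scaling were GAPDH in GSK and HK1, PFKP and PGK1 in GDC. GAPDH and HK1 lost the call with library totals, and PFKP and PGK1 gained it with DESeq2 size factors.

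**Figure D2:**
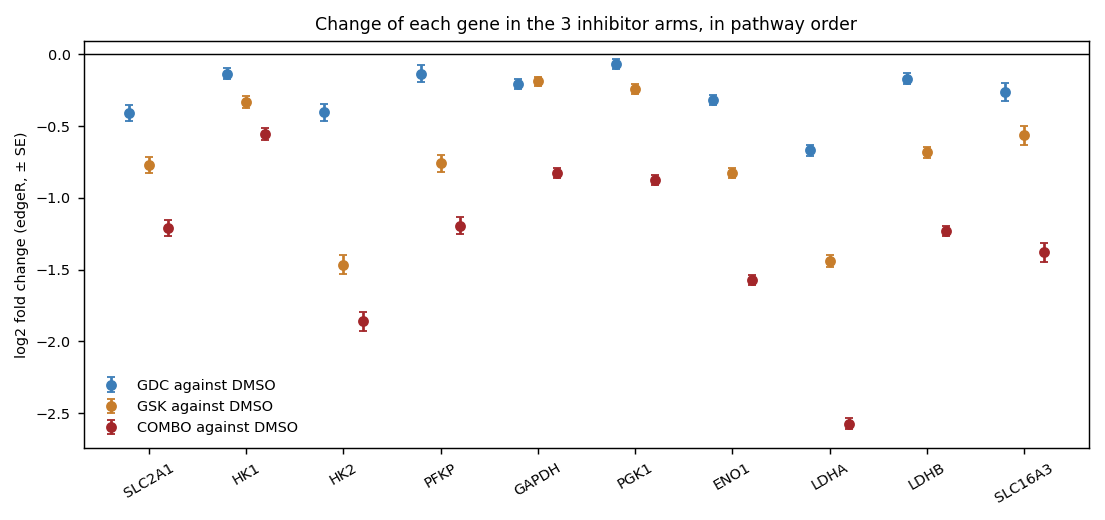
Log2 fold change against DMSO (vertical axis, edgeR, with its SE) of the 10 genes in pathway order (horizontal axis) for GDC, GSK and COMBO. The points of COMBO lie lowest for every gene, from -0.56 at HK1 to -2.57 at LDHA.

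The first step is entry of glucose. SLC2A1 (chromosome 1, 42925353 to 42958893 on hg38, minus strand) encodes GLUT1, the widespread facilitative glucose transporter. It measured 76.2, 77.8 and 76.3 CPM in DMSO, 57.7, 59.5 and 56.1 CPM in GDC, 47.4, 47.0 and 40.8 CPM in GSK, and 33.4, 33.0 and 33.3 CPM in COMBO (replicates A, B and C). The 4 arms did not overlap and descended in that order. SLC2A1 fell by 0.41 on the log2 scale in GDC (SE 0.054, adjusted p = 7.68e-06), by 0.77 in GSK (SE 0.057, adjusted p = 2.08e-10) and by 1.21 in COMBO (SE 0.056, adjusted p = 6.23e-14). The sum of the GDC and GSK changes was -1.18, and COMBO differed from that sum by -0.027 (SE 0.082, adjusted p = 0.861).

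A second transporter gene moved the other way. SLC2A12 (chromosome 6, 133987581 to 134052624) encodes GLUT12, a facilitative transporter of insulin-sensitive and prostate tissue. It measured 7.16, 7.24 and 8.25 CPM in DMSO, 22.4, 25.4 and 23.9 CPM in GDC, 23.7, 25.8 and 27.9 CPM in GSK, and 48.8, 52.1 and 47.6 CPM in COMBO. It rose in all 3 arms, with a log2 fold change of 1.63 for GDC (adjusted p = 1.17e-10), 1.74 for GSK (adjusted p = 9.44e-13) and 2.68 for COMBO (adjusted p = 7.12e-17), and the departure of COMBO from the sum of the single agents was -0.69 (adjusted p = 0.000228). SLC2A12 overlaps TBPL1, so its count is uncertain where strand was not used. Per kilobase of exon, SLC2A1 was at 11.6 CPM in DMSO and 5.02 CPM in COMBO, and SLC2A12 went from 1.36 to 8.89 CPM. SLC2A1 led in DMSO on every length tried, but the order in COMBO depended on the length. Per kilobase of coding sequence the COMBO levels were 22.5 CPM for SLC2A1 and 26.7 CPM for SLC2A12, and per kilobase of the MANE Select transcript 9.82 and 8.89 CPM. SLC2A6 fell with COMBO, with a log2 fold change of -0.27, but lost the call in 4 of 19 alternatives (-0.058 with library totals). SLC2A4 (0.054) and SLC2A8 (-0.20) were not called there, although 10 of 19 alternatives called SLC2A8 lower. SLC2A2, SLC2A3, SLC2A10 and SLC2A14 did not pass the filter.

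Hexokinases trap glucose as glucose 6-phosphate. HK1 is the broadly expressed form, and HK2 is the form of insulin-sensitive tissues that many tumours express. HK2 (chromosome 2, 74834127 to 74893359) was among the members with the largest declines. Its promoter window, 250 bases before to 50 after the start (RefSeq, GRCh38.p14, chr2:74833877-74834176, plus strand), is shown because HK1 and HK2 diverged. Capitals mark matches to ACGTG or GCGTG, the letters of the hypoxia response core, on either strand, so that CACGT and CACGC are the opposite-strand forms.

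HK2: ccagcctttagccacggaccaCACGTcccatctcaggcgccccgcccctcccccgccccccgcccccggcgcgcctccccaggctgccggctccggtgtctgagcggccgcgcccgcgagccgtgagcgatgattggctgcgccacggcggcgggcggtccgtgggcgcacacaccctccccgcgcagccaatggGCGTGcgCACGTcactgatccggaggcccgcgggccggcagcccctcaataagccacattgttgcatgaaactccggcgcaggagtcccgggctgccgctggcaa

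This window holds 2 ACGTG and 1 GCGTG, and no CACGTG. The nearest window found for HK1, 217 bases from its main annotated start, holds 1 GCGTG and no ACGTG. The window of PGK1, which fell less than HK2 in each arm, holds 3 ACGTG and 1 GCGTG. Over 35116 RefSeq promoter windows of this length, 21.4% hold ACGTG, 36.5% GCGTG and 48.4% at least one of them, so such a match is common and is given as a description of the letters alone.

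HK2 measured 118, 118 and 104 CPM in DMSO, 84.9, 81.1 and 89.7 CPM in GDC, 41.1, 37.8 and 43.6 CPM in GSK, and 30.2, 30.8 and 32.2 CPM in COMBO. No arm overlapped another, and the larger step lay between GDC and GSK. HK2 fell by 0.40 with GDC (SE 0.060, adjusted p = 3.05e-05), fell by 1.47 with GSK (SE 0.067, adjusted p = 1.36e-13) and fell by 1.86 with COMBO (SE 0.065, adjusted p = 7.53e-16). The sum of the single agents was -1.87, and the difference of COMBO from it was 0.0077 (SE 0.096, adjusted p = 0.971). HK2 has 1 named pseudogene.

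HK1 (chromosome 10, 69269984 to 69401884) changed least of the 10 genes in COMBO. It measured 269, 269 and 265 CPM in DMSO, 248, 239 and 246 CPM in GDC, 208, 213 and 217 CPM in GSK, and 177, 185 and 184 CPM in COMBO. The arms descended without overlap, but by narrow steps. HK1 fell by 0.13 with GDC (SE 0.040, adjusted p = 0.0119), fell by 0.33 with GSK (SE 0.040, adjusted p = 3.53e-07) and fell by 0.56 with COMBO (SE 0.040, adjusted p = 7.69e-11). Under library totals the GDC value was -0.098 and was no longer called (adjusted p = 0.0502). COMBO differed from the sum of the single agents by -0.093 (SE 0.057, adjusted p = 0.268).

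Because HK2 fell more than HK1, the balance of the hexokinases moved within each library. DMSO libraries held 2.37 ± 0.164 HK1 counts for each HK2 count, GDC libraries 2.87 ± 0.113, GSK libraries 5.23 ± 0.351 and COMBO libraries 5.86 ± 0.152 (SD, n = 3). The arms did not overlap, and each of the 5 comparisons between arms had an exact permutation p of 0.1. A ratio within a library does not depend on library scaling. Per kilobase of exon, HK1 made up 67.1% ± 1.49 of the HK1 and HK2 level in DMSO and 83.5% ± 0.360 in COMBO, and per coding kilobase 70.2% and 85.4%. HK3 and HKDC1 did not pass the filter. Glucose 6-phosphate isomerase (GPI), the next enzyme, fell in GSK (-0.44) and COMBO (-1.15) and was not called in GDC (-0.087, adjusted p = 0.0797), although 11 of 19 alternatives called it lower.

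Phosphofructokinase is the committed step of glycolysis, and PFKP, PFKL and PFKM encode its platelet, liver and muscle subunits. PFKP (chromosome 10, 3066333 to 3137718) measured 118, 139 and 126 CPM in DMSO, 112, 118 and 120 CPM in GDC, 81.3, 71.6 and 74.5 CPM in GSK, and 54.9, 55.7 and 57.5 CPM in COMBO. The GDC libraries overlapped those of DMSO, whereas GSK and COMBO lay below both. PFKP fell by 0.76 in GSK (SE 0.062, adjusted p = 8.32e-10) and by 1.19 in COMBO (SE 0.061, adjusted p = 2.89e-13). In GDC the log2 fold change was -0.13 (SE 0.059, adjusted p = 0.0755), and 12 of 19 alternatives called it lower. The departure of COMBO from the sum of the single agents was -0.30 (SE 0.087, adjusted p = 0.0179), a call that was lost in 10 of 18 alternatives, with an adjusted p of up to 0.183.

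The other subunits changed little. In COMBO, PFKL had a log2 fold change of -0.26 (adjusted p = 0.000122) and PFKM -0.15 (adjusted p = 0.00456). Under library totals neither was called, at -0.056 for PFKL (adjusted p = 0.326) and 0.061 for PFKM (adjusted p = 0.208). PFKM overlaps SENP1. PFKM was the most abundant subunit per kilobase of exon in all 4 arms, with 56.4% of the 3 genes in DMSO and 65.3% in COMBO, while PFKP went from 23.6% ± 0.873 to 13.3% ± 0.465. Counts of PFKP over PFKL gave a ratio of 1.03 ± 0.0330 for DMSO, 0.883 ± 0.0598 for GDC, 0.589 ± 0.0298 for GSK and 0.541 ± 0.00595 for COMBO, with no overlap between arms (exact permutation p = 0.1 in each of 5 comparisons).

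The enzymes that make and remove fructose 2,6-bisphosphate, the main activator of phosphofructokinase, moved in both directions in COMBO. PFKFB3, the form with the strongest kinase bias, fell (-0.85), as did TIGAR (-0.75), a fructose 2,6-bisphosphatase. PFKFB2 (0.37) and PFKFB1 (1.45) rose and PFKFB4 (-0.021) was not called. PFKFB1 was scarce, at 0.74, 0.44 and 0.77 CPM in DMSO and 2.21, 1.38 and 2.11 CPM in COMBO (log2 fold change 1.45, SE 0.32, adjusted p = 0.000296). It also rose in GSK, at 0.88, 1.90 and 2.63 CPM (adjusted p = 0.000762), and was not called in GDC, at 1.15, 0.92 and 1.21 CPM (adjusted p = 0.150).

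Aldolase and triosephosphate isomerase, which split the sugar and interconvert the products, fell with COMBO. ALDOA had a log2 fold change of -0.93 and ALDOC -0.41. TPI1 (chromosome 12, 6867119 to 6870948) measured 986, 1050 and 1019 CPM in DMSO, 859, 880 and 844 CPM in GDC, 699, 690 and 690 CPM in GSK, and 438, 442 and 438 CPM in COMBO. It fell in every arm, with log2 fold changes of -0.24, -0.56 and -1.21 for GDC, GSK and COMBO (adjusted p at most 2.16e-05), and its interaction was -0.42 (adjusted p = 6.52e-06). TPI1 overlaps SPSB2 and has 4 named pseudogenes.

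GAPDH oxidises glyceraldehyde 3-phosphate and yields the NADH that lactate dehydrogenase later consumes. It is also widely used as a loading reference, so its own change matters for other assays. GAPDH (chromosome 12, 6534512 to 6538374) was the most abundant member, at 3752, 4086 and 3856 CPM in DMSO, 3424, 3392 and 3319 CPM in GDC, 3426, 3416 and 3433 CPM in GSK, and 2158, 2218 and 2221 CPM in COMBO. Both single agents lay below DMSO, in ranges that overlapped each other, and COMBO lay below both. GAPDH fell by 0.21 in GDC (SE 0.033, adjusted p = 5.15e-05) and by 0.83 in COMBO (SE 0.033, adjusted p = 4.94e-15). In GSK it fell by 0.19 (SE 0.033, adjusted p = 3.36e-05), but with library totals the value was -0.033 and not called (adjusted p = 0.352). The sum of the single agents was -0.39, and COMBO departed from it by -0.43 (SE 0.046, adjusted p = 1.35e-06). GAPDH has 65 named pseudogenes, so part of its count is uncertain. GAPDHS, the sperm form, was at 2.47 CPM in DMSO and was not called in COMBO (0.048).

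PGK1 (chromosome X, 77910739 to 78129295) makes the first ATP of the pathway. It measured 840, 868 and 846 CPM in DMSO, 810, 821 and 804 CPM in GDC, 730, 726 and 706 CPM in GSK, and 462, 477 and 452 CPM in COMBO. The GDC libraries did not overlap DMSO, but the log2 fold change of -0.069 was not called (SE 0.035, adjusted p = 0.133), and 9 of 19 alternatives called it lower. PGK1 fell by 0.24 in GSK (SE 0.036, adjusted p = 4.64e-06) and by 0.88 in COMBO (SE 0.036, adjusted p = 7.87e-15). The single agents summed to -0.31, and COMBO departed from this by -0.57 (SE 0.050, adjusted p = 1.37e-07). PGK1 shares its annotated span with ATP7A and PGAM4 and has 2 named pseudogenes.

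Phosphoglycerate mutase moves the phosphate group before enolase acts. PGAM1 (chromosome 10, 97426191 to 97433444), the common form, measured 198, 205 and 210 CPM in DMSO, 157, 161 and 151 CPM in GDC, 129, 124 and 125 CPM in GSK, and 75.4, 81.5 and 80.6 CPM in COMBO. Its log2 fold changes were -0.39, -0.70 and -1.37 for GDC, GSK and COMBO (adjusted p at most 2.22e-06), although 13 named pseudogenes make its count uncertain. PGAM2 (chromosome 7, 44062727 to 44065567), the muscle form, was scarce and moved the other way, from 1.26, 1.99 and 1.90 CPM in DMSO to 3.85, 5.61 and 5.17 CPM in GSK and 7.66, 5.55 and 7.65 CPM in COMBO. It rose by 1.44 in GSK (adjusted p = 5.87e-06) and by 1.91 in COMBO (SE 0.19, adjusted p = 1.48e-08), and at 2.74, 1.60 and 2.28 CPM in GDC it was not called (0.24, adjusted p = 0.463). PGAM2 overlaps DBNL. BPGM fell in COMBO (-0.38).

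Enolase makes phosphoenolpyruvate, and ENO1 is its widely expressed form. ENO1 (chromosome 1, 8861000 to 8879190) measured 2123, 2260 and 2176 CPM in DMSO, 1758, 1803 and 1714 CPM in GDC, 1267, 1214 and 1219 CPM in GSK, and 722, 749 and 737 CPM in COMBO. Each arm lay clear of the next. ENO1 fell by 0.31 with GDC (SE 0.035, adjusted p = 1.02e-06), fell by 0.83 with GSK (SE 0.035, adjusted p = 5.47e-14) and fell by 1.57 with COMBO (SE 0.036, adjusted p = 1.43e-18). From the sum of the single agents, -1.14, COMBO departed by -0.43 (SE 0.050, adjusted p = 3.94e-06). ENO1 overlaps ENO1-AS1 and has 4 named pseudogenes.

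ENO2 and ENO3, the neuronal and muscle enolases, rose while ENO1 fell. In COMBO the log2 fold change was 1.04 for ENO2 (adjusted p = 8.31e-09) and 0.59 for ENO3 (adjusted p = 0.000118). ENO2 overlaps LRRC23 and ENO3 overlaps PFN1. For each ENO2 count there were 327 ± 18.5 ENO1 counts under DMSO, 197 ± 11.5 under GDC, 106 ± 0.786 under GSK and 53.9 ± 5.88 under COMBO, with no overlap between arms (exact permutation p = 0.1 in each of 5 comparisons). ENO1 nevertheless made up 95.8% ± 0.495 of the enolase level per kilobase of exon in COMBO, from 99.2% ± 0.0331 in DMSO. Pyruvate kinase (PKM), which makes the second ATP, fell in all 3 arms, with -0.16 for GDC, -0.19 for GSK and -0.91 for COMBO, but with library totals the GSK value was -0.034 and not called (adjusted p = 0.367).

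Lactate dehydrogenase is a tetramer of LDHA and LDHB subunits, and LDHA-rich tetramers are classically tied to lactate formation. The promoter windows of LDHA (RefSeq, GRCh38.p14, chr11:18394313-18394612, plus strand) and LDHB (chr12:21657793-21658092, minus strand) are shown because the balance of the 2 subunits moved in every arm. Capitals mark ACGTG and GCGTG as for HK2, and also CACGTG, the E-box that MYC and other basic helix-loop-helix factors can bind. A CACGTG contains ACGTG on both strands.

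LDHA: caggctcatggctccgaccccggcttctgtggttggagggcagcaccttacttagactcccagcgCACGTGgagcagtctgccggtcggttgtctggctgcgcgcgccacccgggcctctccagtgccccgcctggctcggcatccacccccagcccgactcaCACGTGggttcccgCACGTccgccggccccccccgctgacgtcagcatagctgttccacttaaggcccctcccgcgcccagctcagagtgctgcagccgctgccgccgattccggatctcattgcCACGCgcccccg
LDHB: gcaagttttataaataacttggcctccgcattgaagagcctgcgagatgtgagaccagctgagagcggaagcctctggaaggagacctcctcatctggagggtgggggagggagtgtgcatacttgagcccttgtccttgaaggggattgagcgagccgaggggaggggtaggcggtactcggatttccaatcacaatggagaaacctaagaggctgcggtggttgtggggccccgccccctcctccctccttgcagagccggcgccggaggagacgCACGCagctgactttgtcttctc

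The E-box occurs 2 times in the LDHA window and was not found in that of LDHB. LDHA also holds ACGTG 5 times, where each E-box was counted on both strands, and GCGTG 1 time, which is the single match in LDHB. Of all 35116 windows, 7.26% hold the E-box. RefSeq windows placed at the main annotated start were found for 7 of the 10 genes (not for HK1, PFKP or GAPDH), and of these 1 holds the E-box, 4 hold ACGTG and 6 hold the GCGTG form. The nearest window of GAPDH, 747 bases from that start, holds 1 E-box. A match says that the letters are present and does not show binding.

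LDHA (chromosome 11, 18394560 to 18408425) changed more than any other member in each comparison with DMSO except in GSK, where HK2 changed slightly more. It measured 1527, 1472 and 1454 CPM in DMSO, 946, 952 and 907 CPM in GDC, 547, 538 and 557 CPM in GSK, and 245, 261 and 242 CPM in COMBO. The 4 arms were far apart beside the spread within each. LDHA fell by 0.67 with GDC (SE 0.039, adjusted p = 2.18e-10), fell by 1.44 with GSK (SE 0.039, adjusted p = 1.32e-16) and fell by 2.57 with COMBO (SE 0.041, adjusted p = 7.40e-21), which is 5.95-fold lower. From the most negative change upward it ranked 216 in GDC, 205 in GSK and 105 in COMBO among 14189 genes. Here the sum of the single agents was -2.11, and COMBO departed from it by -0.47 (SE 0.055, adjusted p = 4.84e-06). LDHA has 6 named pseudogenes.

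LDHB (chromosome 12, 21635342 to 21757857) measured 1044, 1038 and 1011 CPM in DMSO, 896, 934 and 918 CPM in GDC, 659, 636 and 631 CPM in GSK, and 439, 454 and 425 CPM in COMBO. It fell in the same order of arms as LDHA but by less, with log2 fold changes of -0.17 for GDC (SE 0.037, adjusted p = 0.00113), -0.68 for GSK (SE 0.037, adjusted p = 1.92e-12) and -1.23 for COMBO (SE 0.038, adjusted p = 8.51e-17). Against a sum of the single agents of -0.85, the departure of COMBO was -0.38 (SE 0.053, adjusted p = 3.05e-05). LDHB has 3 named pseudogenes.

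The LDHA count divided by the LDHB count was 1.44 ± 0.0225 for DMSO, 1.02 ± 0.0339 for GDC, 0.853 ± 0.0273 for GSK and 0.567 ± 0.00851 for COMBO (SD, n = 3), with no overlap between arms and an exact permutation p of 0.1 in each of 5 comparisons. Which subunit led in DMSO depended on the length used, since LDHA made up 41.6% ± 0.380 of the pair per kilobase of exon and 57.6% ± 0.381 per kilobase of coding sequence. On both lengths LDHB led in COMBO, where LDHA made up 21.9% ± 0.257 and 34.9% ± 0.341. LDHD, a mitochondrial D-lactate dehydrogenase, rose in GDC (0.41), GSK (1.06) and COMBO (0.63), and its interaction was -0.84 (adjusted p = 8.83e-07). LDHC and LDHAL6B did not pass the filter.

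**Figure D3:**
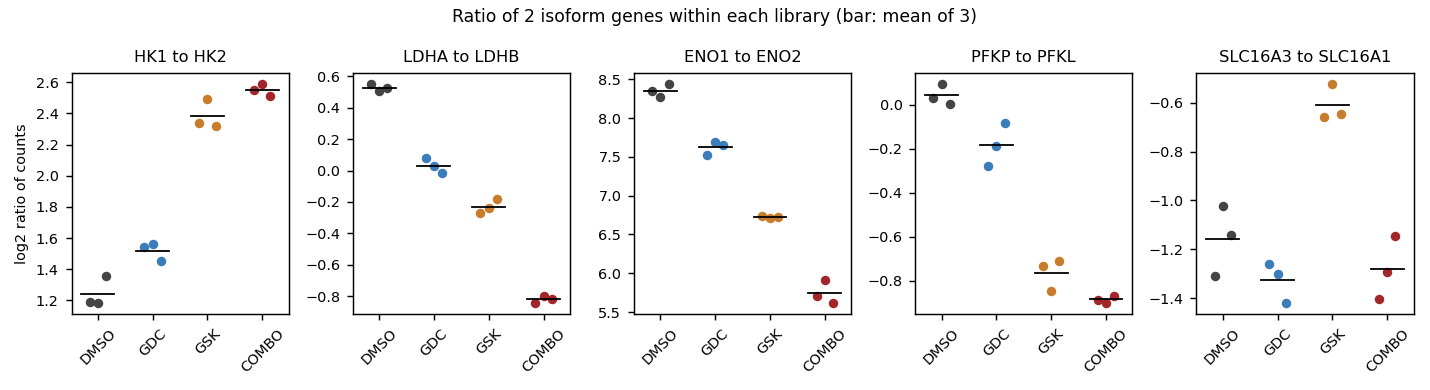
Log2 ratio of the counts of 2 isoform genes in each library (points, with the mean of 3 as a bar) for 5 pairs, by arm. The axes are cut to the data and do not start at 0. HK1 to HK2 climbs from DMSO to COMBO, LDHA to LDHB, ENO1 to ENO2 and PFKP to PFKL descend, and SLC16A3 to SLC16A1 stands apart only in GSK.

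Lactate leaves the cell through monocarboxylate transporters. SLC16A3 (chromosome 17, 82217934 to 82261129) encodes MCT4, the low-affinity exporter of glycolytic cells, and it measured 99.4, 117 and 109 CPM in DMSO, 92.8, 95.4 and 84.3 CPM in GDC, 74.5, 76.6 and 69.7 CPM in GSK, and 38.6, 44.3 and 42.2 CPM in COMBO. The arms did not overlap, although the gap between DMSO and GDC was narrow. SLC16A3 fell by 0.26 with GDC (SE 0.064, adjusted p = 0.00296), fell by 0.56 with GSK (SE 0.066, adjusted p = 2.08e-07) and fell by 1.38 with COMBO (SE 0.067, adjusted p = 1.32e-13). The single agents summed to -0.82, and the departure of COMBO from that was -0.56 (SE 0.095, adjusted p = 0.000278). SLC16A3 overlaps CSNK1D.

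SLC16A1 (chromosome 1, 112911847 to 112957593) encodes MCT1, which carries lactate in either direction. It measured 246, 237 and 240 CPM in DMSO, 222, 235 and 225 CPM in GDC, 118, 110 and 109 CPM in GSK, and 102, 108 and 93.4 CPM in COMBO. It fell by 1.10 in GSK (adjusted p = 3.10e-13) and by 1.25 in COMBO (adjusted p = 1.18e-14) and was not called in GDC (-0.083, adjusted p = 0.204), and COMBO differed from the sum of the single agents by -0.060 (adjusted p = 0.618). Dividing SLC16A3 by SLC16A1 counts gave 0.450 ± 0.0445 for DMSO, 0.400 ± 0.0227 for GDC, 0.656 ± 0.0341 for GSK and 0.413 ± 0.0375 for COMBO. It was higher in GSK than in DMSO and COMBO without overlap (exact permutation p = 0.1), while COMBO overlapped DMSO (exact permutation p = 0.4) and GDC (exact permutation p = 0.6).

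SLC16A7 (MCT2, chromosome 12, 59596029 to 59789855), a high-affinity importer, was at 14.4, 9.18 and 13.1 CPM in DMSO, 5.82, 8.06 and 7.20 CPM in GSK and 4.30, 4.35 and 4.22 CPM in COMBO. It fell by 0.77 in GSK (adjusted p = 0.000113) and by 1.50 in COMBO (adjusted p = 1.21e-08), and at 10.8, 11.1 and 12.4 CPM in GDC it was not called. SLC16A8 (MCT3, chromosome 22, 38078134 to 38084184), a transporter of the retinal pigment epithelium, rested on 16 counts in the DMSO arm and 135 in COMBO. It stood at 0.11, 0.39 and 0.19 CPM in DMSO, 1.32, 2.45 and 0.93 CPM in GSK and 3.48, 1.64 and 2.77 CPM in COMBO, a rise of 2.75 in GSK (SE 0.55, adjusted p = 0.000142) and of 3.42 in COMBO (SE 0.46, adjusted p = 9.45e-07). In GDC its libraries spread from 0.12 to 0.80 CPM and it was not called. The chaperone BSG, which takes MCT1 and MCT4 to the membrane, was not called in COMBO (0.064, adjusted p = 0.133) but was with library totals (0.27). Its relative EMB fell (-0.35), a call that was lost with library totals (-0.14, adjusted p = 0.0997).

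The departure of COMBO from the sum of the single agents was tested as an interaction on the log2 scale. COMBO lay below the sum for 7 of the 10 genes, against 16.5% of all tested genes below and 4.86% above. The 7 genes were PFKP, GAPDH, PGK1, ENO1, LDHA, LDHB and SLC16A3, with departures from -0.30 to -0.57. SLC2A1, HK1 and HK2, which serve uptake and the first phosphorylation, did not pass the threshold. Outside the members the early steps were mixed. SLC2A6, SLC2A12 and GPI were called below the sum in each of 18 alternative fits, and SLC2A4 and SLC2A8 in none. The lactate transporter SLC16A1 was also called in none. SLC2A12 rose in every arm, so for it below the sum means a smaller rise. SLC2A6 rose in GSK and fell in COMBO, while GPI fell in both. The median departure of the 10 genes was -0.40, where that of all genes was -0.063. Whether the departures of the early and later steps differ from each other was not tested.

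**Figure D4:**
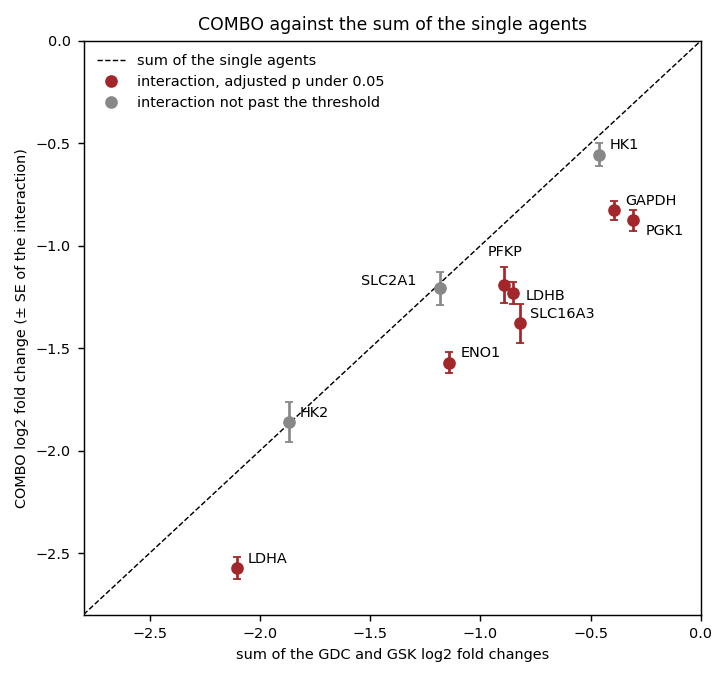
Log2 fold change of COMBO (vertical axis, with the SE of the interaction) against the sum of the GDC and GSK log2 fold changes (horizontal axis) for the 10 genes. SLC2A1, HK1 and HK2 lie within 0.10 of the dashed line of equality, and the 7 genes in red lie below it.

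The rest of the listed pathway moved in both directions. Of 40 other genes listed for the same steps, 28 passed the filter, and the 12 that did not had at most 0.311 CPM on average in any arm. Of the 28, GDC called 6 lower and 7 higher, beside 20.0% and 20.0% of all tested genes. GSK called 11 lower and 10 higher, beside 35.7% and 40.0%. COMBO called 15 lower and 8 higher, beside 39.2% and 43.3%. COMBO against GDC called 16 lower and 8 higher, beside 38.0% and 37.9%. COMBO against GSK called 15 lower and 4 higher, beside 26.9% and 19.0%. The interaction called 13 below the sum, beside 16.5%. These 13 include genes that rose in COMBO, such as SLC2A12 and LDHD, so they are not all larger falls. In GDC and GSK the shares of the 28 called lower, 21.4% and 39.3%, were near those of all genes. Their median log2 fold change was 0.058 for GDC, -0.059 for GSK and -0.23 for COMBO. The abundant genes GPI, ALDOA, TPI1, PGAM1, PKM and SLC16A1 were among the 15 that fell in COMBO, and SLC2A12, PFKFB1, PFKFB2, PGAM2, ENO2, ENO3, LDHD and SLC16A8, all under 100 CPM in every arm, were the 8 that rose. SLC2A6, PFKFB3, TIGAR, ALDOC, BPGM and SLC16A7, also under 100 CPM in every arm, were among the 15 that fell.

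**Figure D5:**
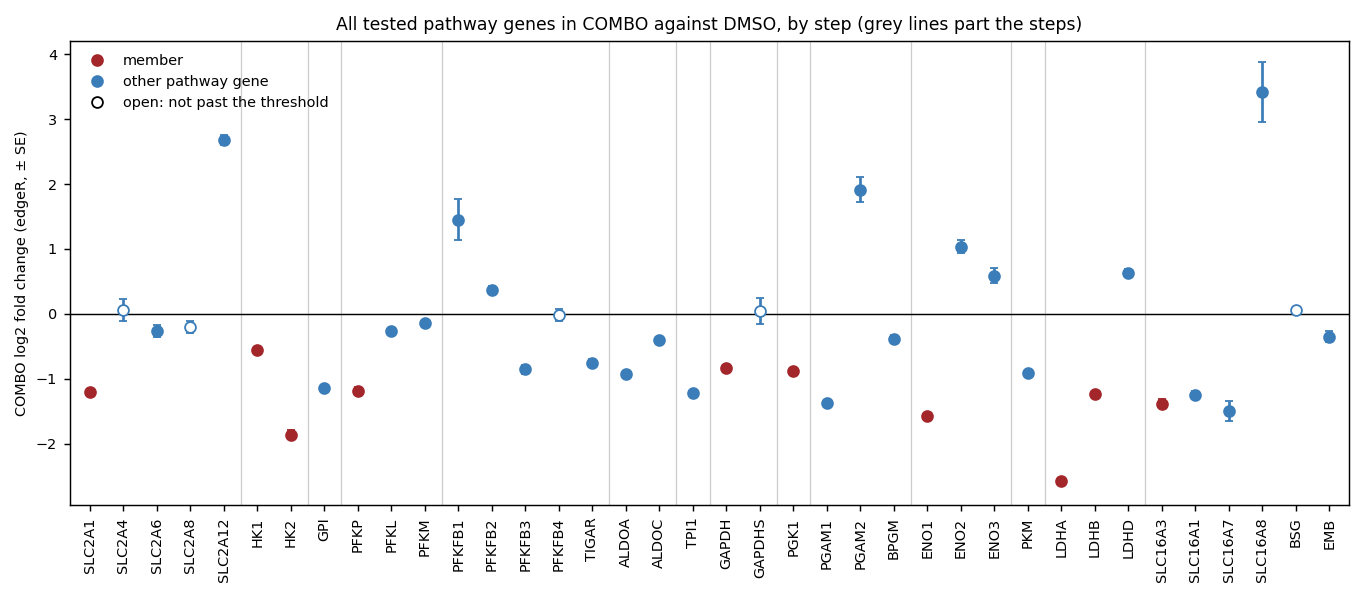
Log2 fold change of COMBO against DMSO (vertical axis, edgeR, with its SE) for the 10 members in red and the 28 other tested genes in blue, in order of the pathway, with grey lines between steps. Open points were not called. The members lie between -0.56 and -2.57, and the highest points are SLC16A8 at 3.42 and SLC2A12 at 2.68.

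Per kilobase of exon, the order of the members in DMSO was GAPDH (1627 CPM), ENO1 (419), LDHB (345), LDHA (246), PGK1 (157), HK1 (38.9), HK2 (19.1 ± 1.40), PFKP (16.4 ± 1.40), SLC16A3 (11.7 ± 0.936) and SLC2A1 (11.6 ± 0.136). The ranges of HK2 and PFKP overlapped, but HK2 lay above PFKP within each DMSO library. Those of SLC16A3 and SLC2A1 also overlapped, and this pair was not ordered on this length. Per coding kilobase both pairs separated, with 51.0 ± 4.35 CPM for PFKP over 41.1 ± 3.01 for HK2 and 77.6 ± 6.20 CPM for SLC16A3 over 52.0 ± 0.608 for SLC2A1. In COMBO the order began GAPDH (918 CPM), LDHB (147 ± 4.81), ENO1 (141 ± 2.57), PGK1 (85.2) and LDHA (41.4). The ranges of LDHB and ENO1 overlapped, but LDHB lay above ENO1 within each COMBO library. Per coding kilobase ENO1 lay above LDHB in each of them. The length is that of all annotated exons, and the transcripts in use may be shorter. On coding length LDHA stood above LDHB in DMSO.

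For each member, the gene of at least 4 mean log2 CPM with the most similar GDC, GSK and COMBO changes was sought among 8832 genes by Euclidean distance of the 3 log2 fold changes. The nearest genes were DHX9 for SLC2A1 (distance 0.0374), ARHGDIA for HK1 (0.0263), ANKRD32 for HK2 (0.102), TKT for PFKP (0.0443), ITGAE for GAPDH (0.0512), CYB5A for PGK1 (0.0592), DCTPP1 for ENO1 (0.0455), CCNA2 for LDHA (0.0959), CSTF2 for LDHB (0.0279) and TROAP for SLC16A3 (0.0649). HK2 and LDHA had the most distant nearest genes. Among the members themselves, PFKP and LDHB lay closest (0.0916), followed by GAPDH and PGK1 (0.156), and LDHA had no member nearer than HK2 at 0.761.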

How the data were processed

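The 12 libraries of C4.2B polyA RNA form 4 arms of 3. The authors deposited raw counts by gene symbol, and the submitters' processing notes name STAR, HTSeq and hg38. Versions, annotation and use of strand are not given in the sources used here, so counts of overlapping genes are uncertain. Normalized signal, deposited in a separate table, is the count over a DESeq2 size factor. It served only as a check (largest relative deviation of the members 4.58e-10). There were 0 unmapped columns, and the 5 summary lines were left out.

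Counts were fitted in R 4.3.3 by edgeR 4.0.16 (quasi-likelihood), with TMM scaling, filterByExpr, all 12 libraries and 1 coefficient per arm, two-sided, at a Benjamini-Hochberg adjusted p under 0.05 over 14189 genes. The common biological coefficient of variation was 0.0499. The interaction was COMBO minus GDC minus GSK plus DMSO. Replicates differed by more than sampling noise (chi-square per degree of freedom 1.80 to 6.49). A count of 0 allows 3 counts, or 0.0675 to 0.341 CPM, which covers counting error only. Isoform ratios (5 pairs, 25 comparisons) and the summed level were compared by exact permutation. The smallest adjusted p over the 25 was 0.114. The script was tested on simulated data with 200 changed genes.

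The members and the list of 40 other pathway genes were chosen with earlier results of these data known. Named were all members, the tested isoforms and enzymes at their steps, with full values for the 8 called genes of largest change in COMBO, and the nearest gene of each member. Coordinates and lengths are from GENCODE 44 on hg38, where PKM is listed in the files as PKM2 and TIGAR as C12orf5. Promoters are RefSeq windows on GRCh38.p14, which were found for 10 of 10 members. Motifs were sought on both strands. Alternatives were DESeq2 1.42.0, other scalings and filters, a minimum log2 change of 1 in size, leaving out the arms not compared, a replicate block, and leaving out each library. A scaling to GAPDH was added after seeing the data. Some listed genes are not reported here.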

Additional observations from a re-analysis of the deposited data

Results flagged for a closer look

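In 7 of the 10 genes the effect of GDC-0941 differed between cells with and without GSK126, by the edgeR test of the interaction over 14189 genes. The interaction, in log2 units, was -0.30 for PFKP, -0.43 for GAPDH, -0.57 for PGK1, -0.43 for ENO1, -0.47 for LDHA, -0.38 for LDHB and -0.56 for SLC16A3. Of all tested genes, 16.5% were called below the sum of the single agents. The PFKP value was not called when DMSO A or C, GDC A, B or C, GSK A or B, or COMBO A was left out, nor with no filter (-0.21, adjusted p = 0.107) or with a mean of at least 1 CPM (-0.24, adjusted p = 0.0590). The other 6 were called under every alternative run other than a minimum absolute log2 fold change of 1.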

How the results depend on the processing

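Of 1130 single-gene values for members under alternative settings, 1097 kept their side of the threshold, 12 lost the call and 21 gained it. With a call in either fit, 0 reversed sign. Sign changes of uncalled values were not counted, such as the SLC2A1 interaction, which ran from -0.092 to 0.077. All 10 members stayed called lower in COMBO against DMSO, GDC and GSK in each of these fits at an adjusted p under 0.05. With a minimum absolute log2 fold change of 1, the members called were 0 in GDC, 2 in GSK, 7 in COMBO, 6 in COMBO against GDC, 1 in COMBO against GSK and 0 in the interaction. The other pathway genes called were 1, 6, 10, 6, 0 and 0 in the same order. The share of all tested genes under this rule was not computed. For COMBO, 7.89% of tested genes had a log2 fold change of -1.19 (PFKP) or lower. At -0.88 (PGK1) or lower that share was 13.9%. For GSK it was 1.44% at -1.44 (LDHA) and 9.33% at -0.83 (ENO1). In COMBO against GDC it was 6.55% at -1.06 (PFKP) and 11.5% at -0.81 (PGK1). In COMBO against GSK it was 1.40% at -1.13 (LDHA) and 3.16% at -0.82 (SLC16A3). These shares use the log2 fold change alone. The log2 difference in summed level with library totals was -0.24 in GDC, -0.38 in GSK, -0.99 in COMBO, -0.75 in COMBO against GDC and -0.61 in COMBO against GSK, and with DESeq2 size factors -0.31 in GDC and -0.57 in GSK. Library totals reversed PFKM in GSK (0.049) and COMBO (0.061) and BSG in COMBO against GDC (0.074). The cause was not tested. Without 1 library, the members called ranged from 8 to 10 in GDC and from 6 to 7 in the interaction. The labels do not say whether the letters A, B and C pair the libraries. Deviations of same-letter libraries correlated by -0.084 to 0.19, and only 2 of 18 pairs passed 0.1. Between GDC and COMBO the same-letter values were 0.12, 0.19 and 0.073, above every different-letter value (at most 0.045). Between DMSO and GDC every same-letter value was negative. With deviations from means of 3 libraries, these values cannot decide whether the letters pair. With a replicate block, 8 members were called in GDC and 7 in the interaction.

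Scaled to GAPDH counts, an alternative chosen after seeing the data, the sign reversed for HK1 in GDC (0.073), COMBO (0.27), COMBO against GDC (0.20) and COMBO against GSK (0.41), for LDHB in GDC (0.036) and COMBO against GSK (0.092), and in COMBO against GSK for SLC2A1 (0.20), HK2 (0.25), PFKP (0.20) and PGK1 (0.0023). In GDC the uncalled values of PFKP (0.077) and PGK1 (0.14) also turned positive. These reversals follow from the construction, since GAPDH itself fell. Depth did not limit the members, whereas SLC16A8 and PFKFB1 rested on few counts.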

Other observations

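Scaled to GAPDH counts in the same library, HK1 was higher in COMBO than in DMSO, by a log2 difference of 0.27 (exact permutation p = 0.1, the smallest possible with 3 libraries against 3). The same difference was -0.052 for PGK1 (exact permutation p = 0.3) and -1.75 for LDHA (exact permutation p = 0.1). GAPDH is itself a member, and scaling to it was chosen after seeing the data. The sign for HK1 follows from the log2 fold changes in COMBO, -0.83 for GAPDH and -0.56 for HK1, and is not a separate result.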
